A study of Mus musculus with 4 samples.

Results

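Cycling kidney cells were studied in single-cell RNA-Seq libraries of whole kidneys from 4 groups of male C3H/HeJ mice, with 1 library per group. They were defined by UMIs (unique molecular identifiers, each standing for 1 captured transcript) of Mki67 and Top2a, which mark dividing cells. A barcode was kept if it had 200 to 5000 detected genes and under 50% of its UMIs from mitochondrial genes, and a kept barcode was called cycling if Mki67 and Top2a together gave at least 2 UMIs. This rule found 151 cycling cells among 34789 kept cells of 58660 barcodes, a share of 0.434% (95% Clopper-Pearson interval 0.368 to 0.509). Wild-type mice (WT) and Sweet Pee mice (SP), in which a missense mutation alters Slc5a2 and with it the glucose cotransporter SGLT2, were fed normal diet (ND) or high-fat diet (HFD, 60% of calories from fat) from 10 weeks of age for 8 weeks. The groups are named WT-ND and WT-HFD, and SP-ND and SP-HFD, and where 4 values by library stand in a row they follow that order. All mice were 18 weeks old at the end of the diet. The labels do not say how many kidneys went into a library. The SP allele is present in every cell of the SP mice, and the kidney samples had been digested with enzymes and treated to lyse red blood cells before loading. With 1 library per group no difference between groups was tested, and all intervals cover counting error only.

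A cell that divides copies its DNA in S phase, when replication origins loaded with the MCM helicase fire and histones are made, and separates the copies in mitosis, when the spindle pulls on the kinetochores. Cyclins and their kinases drive these steps, CDK inhibitors such as p21 and p27 hold them back, and the anaphase-promoting complex ends mitosis by marking cyclin B and securin for destruction. Many genes of G2 phase and mitosis are controlled through promoter elements known as CHR (cell cycle genes homology region) and CCAAT boxes, which are bound by the MuvB complexes and by NF-Y. In the adult kidney most tubule cells rest outside the cycle, and tubule cells can re-enter it after injury, while macrophages, lymphocytes and endothelial cells can divide where they reside. Podocytes and neutrophils are taken as cells that do not normally divide.

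The promoters of Mki67 and Top2a are shown because these genes chose the cells, and those of Ube2c and Cdc20 because these partners of the anaphase-promoting complex stood out among its genes below. Each sequence is the 250 bases before the RefSeq gene start on the strand of the gene (build GRCm38.p6), 5′ to 3′, and capitals mark CCAAT, the CHR letters TTTGAA (each on either strand, so also ATTGG and TTCAAA) and TTCGAA, which is its own reverse complement. Mki67, which coats mitotic chromosomes, lies on the minus strand with this stretch at chr7:135716380-135716629. Top2a, the topoisomerase that untangles replicated DNA, lies on the minus strand with its stretch at chr11:99024190-99024439. Ube2c, a ubiquitin-conjugating enzyme, is on the plus strand at chr2:164769679-164769928, and Cdc20, an activator of the complex, on the minus strand at chr4:118437344-118437593.
Mki67: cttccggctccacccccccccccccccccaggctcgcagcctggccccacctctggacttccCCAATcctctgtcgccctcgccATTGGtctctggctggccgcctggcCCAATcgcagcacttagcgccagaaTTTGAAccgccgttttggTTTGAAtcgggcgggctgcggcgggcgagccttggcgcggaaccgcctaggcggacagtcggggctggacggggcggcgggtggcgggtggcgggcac
Top2a: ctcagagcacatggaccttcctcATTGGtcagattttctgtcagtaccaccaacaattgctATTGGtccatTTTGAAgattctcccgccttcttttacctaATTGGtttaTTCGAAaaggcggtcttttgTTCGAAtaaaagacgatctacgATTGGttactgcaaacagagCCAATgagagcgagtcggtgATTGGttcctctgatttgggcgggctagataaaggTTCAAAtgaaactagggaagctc
Ube2c: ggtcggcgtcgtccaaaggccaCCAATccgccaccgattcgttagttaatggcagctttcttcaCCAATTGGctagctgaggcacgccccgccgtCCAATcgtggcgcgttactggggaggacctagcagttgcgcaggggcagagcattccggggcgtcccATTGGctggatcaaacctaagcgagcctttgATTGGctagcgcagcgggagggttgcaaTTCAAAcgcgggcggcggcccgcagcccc
Cdc20: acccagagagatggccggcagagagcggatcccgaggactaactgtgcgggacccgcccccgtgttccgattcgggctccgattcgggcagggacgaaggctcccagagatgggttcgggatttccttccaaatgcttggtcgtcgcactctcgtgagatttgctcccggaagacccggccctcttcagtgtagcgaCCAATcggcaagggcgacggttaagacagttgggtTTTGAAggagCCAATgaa
The stretch of Mki67 holds 3 CCAAT and 2 TTTGAA matches, and that of Top2a holds 6 CCAAT, 2 TTTGAA and 2 TTCGAA matches. Ube2c has 6 CCAAT matches, of which 1 pair overlaps, and 1 TTTGAA match, and Cdc20 has 2 and 1. Over windows that run from 250 bases before to 50 after the start, 37.4% of all 32851 RefSeq promoters held CCAAT and 17.9% held TTTGAA. Among the 34 genes of kinetochore, spindle and cytokinesis described below, 30 matched a promoter, and 25 of their 33 windows (75.8%) held TTTGAA while 66.7% held CCAAT. Among the genes of DNA synthesis and chromatin assembly, 22 of 26 matched, and 7.14% of their 28 windows held TTTGAA while 50% held CCAAT. The latter are 2 windows, and the other S-phase lists did not share the low value, with TTTGAA in 37.5% of 16 windows for origin loading and firing and in 18.2% of 33 for the S list. The TTTGAA share was thus above that of all promoters in the mitotic list, while the lists of S phase lay on both sides of it. The promoter window of Birc5 held 0 matches to any of the 3 motifs. A match is a description of the letters and not evidence of binding.

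The label was checked with Stmn1, which destabilizes microtubules, and Birc5, a subunit of the chromosomal passenger complex, neither of which was part of the rule. Stmn1 was found in 120 of the 151 cells and Birc5 in 83, and 30 cells had neither. Levels are given as CPM, the pooled UMIs of a gene scaled to the same total UMIs in each group of cells. Stmn1 was 894, 859, 807 and 1459 CPM in the cycling cells of the 4 libraries. In the other kept cells of each library, weighted to the same cell classes, it was 44.5, 64, 52.5 and 54.5 CPM. Stmn1 was therefore far higher in the cycling cells of every library, by 4.19 on the log2 scale when pooled (4.11 to 4.26). Birc5 was 182, 313, 132 and 309 CPM in cycling cells, against 0.721, 1.39, 0.144 and 0.668 CPM in the reference. Because the cells were chosen by genes of the same programme, these and all ratios below describe the chosen cells and are not a test.

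Cells just inside and just outside the rule differed in degree. Mki67 and Top2a were both seen in 93 cycling cells, Mki67 alone in 39 and Top2a alone in 19, and 45 cells had exactly 2 UMIs. At 0 UMIs of the pair, Stmn1 stood at 66.7 CPM over 34371 cells. It was 151 CPM over the 267 cells with 1 UMI, 310 CPM over the 45 cells with 2, 764 CPM over the 34 cells with 3 to 5 and 1530 CPM over the 72 cells with 6 or more. Birc5 followed the same order, from 0.481 CPM at 0 UMIs to 438 CPM at 6 or more. As a further count, the S and G2/M lists widely used to score the cycle were examined without Mki67 and Top2a. The 92 genes left include Birc5, so this count is not fully separate from the levels above. A median of 3 of the 92 was detected at 0 UMIs, 6 at 1 UMI, 11 at 2 UMIs, 22.5 at 3 to 5 UMIs and 43.5 at 6 or more.

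At least 10 of these 92 genes were detected in 123 of the 151 cycling cells (81.5%), against 10.8% of the other kept cells. Cycling cells held more UMIs, with a median of 8972 per cell against 4632, and the part of depth in this gap was not tested. By library 42 of 48, 38 of 49, 14 of 17 and 29 of 37 cells reached 10 genes. Of the 28 cells below 10 genes, 20 had exactly 2 UMIs of the rule genes. The 267 cells with 1 UMI, which fall outside the rule, were split over the libraries as 54, 133, 23 and 57.

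**Figure D1:**
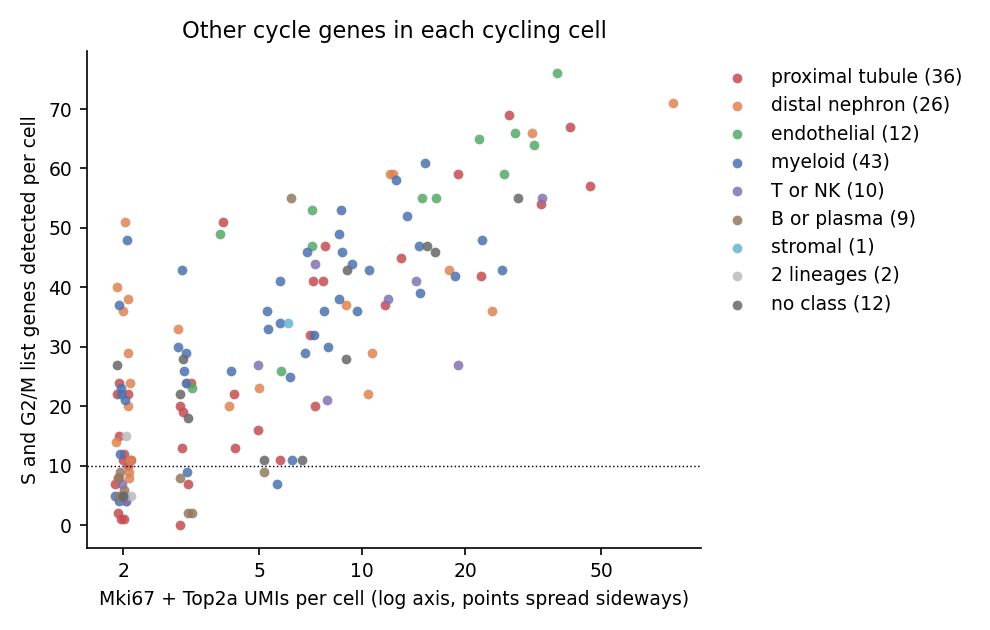
Number of the 92 S and G2/M genes detected per cycling cell (vertical axis) against its UMIs of Mki67 and Top2a (horizontal axis, log scale), with 1 point per cell coloured by lineage and a line at 10 genes. Endothelial cells all lie above the line, between 23 and 76 genes, and 8 of 9 B or plasma cells lie below it.

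WT-ND held 48 cycling cells among 10869 kept cells, 0.442% (0.326 to 0.585), and WT-HFD 49 among 9700, 0.505% (0.374 to 0.667). SP-ND held 17 among 6754, 0.252% (0.147 to 0.403), and SP-HFD 37 among 7466, 0.496% (0.349 to 0.682). SP-ND thus had the lowest share, and the other 3 libraries lay within each other's intervals. The ratio of shares, HFD over ND, was 1.14 in WT (0.752 to 1.74) and 1.97 in SP (1.08 to 3.73). With 1 UMI as the threshold the ratio HFD over ND was 2.00 in WT (1.56 to 2.57) and 2.13 in SP (1.45 to 3.16), and with 3 UMIs 1.19 (0.717 to 1.97) and 1.74 (0.857 to 3.70). The ratio SP over WT was 0.570 on ND (0.307 to 1.01) and 0.981 on HFD (0.622 to 1.53). The libraries also differed in depth and in the mitochondrial share of the cycling cells. Their median UMIs were 6460, 10484, 9148 and 8719, against 3820, 4834, 5692 and 4858 in the other kept cells. Their median mitochondrial share was 22.5%, 4.19%, 7.24% and 13.1%, against 22%, 24.1%, 24.5% and 19.9%. With each cell thinned to 2000 UMIs and shallower cells left out, which leaves 7295, 7886, 5239 and 5831 cells, the shares were 0.301%, 0.236%, 0.171% and 0.302%. SP-ND was the lowest then too, and the WT ratio of HFD over ND fell below 1. The part of depth and of cell mix in the differences between libraries was not tested, since each library is also a group. Of the barcodes of the cycling cells, 2 also occurred among all barcodes, kept or not, of another library, and 0 were cycling in both.

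The lineage of each cell was taken from marker lists that hold no cycle gene. The 151 cells fell into 43 myeloid cells, 36 proximal tubule cells, 26 cells of the distal nephron, 12 endothelial cells, 10 T or natural killer (NK) cells, 9 B or plasma cells and 1 stromal cell. Markers of 2 lineages were found in 2 cells and no class in 12. No podocyte was cycling among 1290, which allows a share of up to 0.233% (the limit of a count of 0 being set at 3 counts here and below), and no neutrophil among 141, which allows up to 2.13%. Podocytes held a median of 6071 UMIs, more than proximal tubule cells (4683), and neutrophils held 1508. Cells with 1 UMI of the rule genes were seen in 2 of 272 podocytes in WT-HFD and in 0 podocytes of the other 3 libraries, and in 1 of 29 neutrophils in WT-HFD and 0 of the other libraries. At 2 UMIs the rule thus left 0 cells in these lineages, with neutrophils few and shallow. With the likelihood of all other genes, 132 of the 137 cells that had a lineage both ways kept it. The profiles for this likelihood came from cells classed by the same marker lists, so it is not an independent check. The 8 lead genes alone, which belong to the same marker lists, left 43.7% of the cells without a class. Of the 151 cells, 19 scored near the limit for a class and 2 near the limit for a second lineage.

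**Figure D2:**
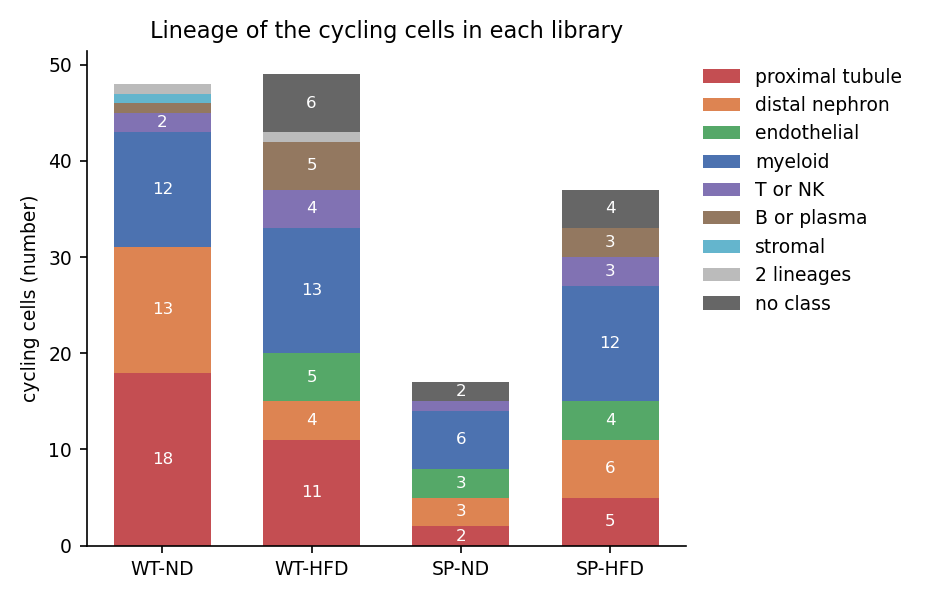
Number of cycling cells (vertical axis) of each lineage in each of the 4 libraries (horizontal axis), stacked by lineage. Proximal tubule and distal nephron cells make up 31 of the 48 cells in WT-ND and 15 of the 49 in WT-HFD, and endothelial cells are seen in 3 libraries only.

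In the proximal tubule, which reabsorbs most of the filtered glucose, phosphate and amino acids, 18, 11, 2 and 5 cells were cycling. Their pooled level of Slc34a1, the sodium-phosphate cotransporter, was 1821, 2266, 1587 and 1673 CPM, against 2586, 2429, 2112 and 2649 CPM in the other proximal tubule cells. Cycling proximal tubule cells thus kept Slc34a1 at a level lower than that of their neighbours in each library. Slc5a2 itself was read with 62 UMIs in 18 cycling proximal tubule cells of WT-ND (311 CPM) and 29 UMIs in 11 cells of WT-HFD (237 CPM). It was read with 5 UMIs in SP-ND (100 CPM) and 2 in SP-HFD (31.9 CPM). In the other proximal tubule cells it was 309, 198, 58.8 and 100 CPM, so the SP libraries were lower in these more numerous cells. A missense mutation need not change the transcript level, and the count does not check the genotype.

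In the distal nephron the cycling cells were of all 4 segments that the lists name. The thick ascending limb, which reabsorbs salt through Slc12a1, gave 5, 1, 2 and 2 cells. Slc12a1 in them was 6269, 6215, 4819 and 2169 CPM, against 5877, 4278, 5501 and 4683 CPM in the other cells of that segment. The distal convoluted tubule, marked by the thiazide-sensitive cotransporter Slc12a3, gave 2, 1, 0 and 2 cells, with Slc12a3 at 5196 CPM in WT-ND, 2933 in WT-HFD and 2204 in SP-HFD, against 5771, 5736 and 5475 CPM in the other cells of the segment. Slc12a3 was thus lower than in the other cells in each of these libraries, and Slc12a1 was lower in both SP libraries and higher in both WT libraries, from 1 to 5 cells each. Principal cells of the collecting duct, which carry the water channel Aqp2, gave 2, 1, 1 and 1 cells, with Aqp2 at 4818, 3058, 3274 and 3391 CPM against 5036, 7792, 6872 and 7335 CPM. Intercalated cells, which handle acid and base, gave 4, 1, 0 and 1 cells.

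Endothelial cells line the vessels and carry Kdr, a receptor of vascular endothelial growth factor. None of the 725 endothelial cells of WT-ND was cycling, which allows a share of up to 0.414%, whereas 5 of the WT-HFD library were, with 3 and 4 in the SP libraries. A further 7 endothelial cells of WT-ND had 1 UMI of the rule genes, against 2, 1 and 3 in the others, and with 1 UMI as the threshold the shares were 0.966% in WT-ND and 1.04% in WT-HFD. In the 3 libraries with cycling endothelial cells Kdr was 620, 196 and 1211 CPM in the cycling endothelial cells, against 1390, 1537 and 1324 CPM in the other endothelial cells. It was read with 27, 7 and 53 UMIs, and 1 of the 12 cells had 0. These 12 cells were the most fully engaged by the count of cycle genes, with a median of 55 of the 92 genes and a median of 15.5 UMIs of the rule genes. Of these 12 endothelial cells, the one with the most Mki67 and Top2a UMIs came from SP-HFD. It had 22 Mki67, 16 Top2a, 59 Stmn1, 8 Birc5 and 18 Kdr UMIs among 7781.

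Myeloid cells were the most frequent lineage when pooled, with 12, 13, 6 and 12 cells, although in WT-ND proximal tubule cells (18) and distal nephron cells (13) were more numerous. By the 8 lead genes alone the pooled order turned, with 30 proximal tubule and 20 myeloid cells. Only C1qa, a complement subunit, marks myeloid cells among these genes, and none stands for monocytes or dendritic cells. That order thus follows in part from the choice of genes. Of the 43 myeloid cells, 23 were macrophages by the list led by C1qa and 20 were monocytes or dendritic cells. C1qa in the cycling macrophages was 3633, 4253, 3415 and 4165 CPM, against 3824, 3812, 4365 and 4603 CPM in the other macrophages. The level in cycling macrophages was thus close to that of other macrophages, above it in WT-HFD and below it in the other 3 libraries. T cells, marked by the T cell receptor subunit Cd3d, gave 0, 3, 1 and 3 cells with 13, 1 and 5 Cd3d UMIs in the libraries that had any. NK cells gave 2 cells in WT-ND and 1 in WT-HFD. Plasma cells, marked by the endoplasmic reticulum cochaperone Mzb1, gave 1, 5, 0 and 2 cells, and the single B cell came from SP-HFD.

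Relative to the size of each lineage, cycling cells were more frequent among myeloid cells than in the proximal tubule in each library. Of myeloid cells 4.65% (2.43 to 7.98), 4.89% (2.63 to 8.21), 2.13% (0.785 to 4.57) and 2.96% (1.54 to 5.12) were cycling. Of proximal tubule cells 0.384% (0.228 to 0.607), 0.290% (0.145 to 0.519), 0.127% (0.0154 to 0.457) and 0.452% (0.147 to 1.05) were. The intervals of these lineages did not overlap in any of the 4 libraries. The median depth of the kept myeloid cells was 2694, 5347, 3959 and 4186 UMIs, against 3808, 4799, 9037 and 4246 in the proximal tubule, so myeloid cells were deeper in WT-HFD and shallower in the other 3 libraries. At 2000 UMIs per cell the pooled shares were 2.11% of myeloid and 0.176% of proximal tubule cells, against 3.55% and 0.323% at full depth. Of distal nephron cells 0.472% (0.252 to 0.806), 0.187% (0.0510 to 0.478), 0.124% (0.0256 to 0.361) and 0.209% (0.0767 to 0.454) were. Endothelial cells had 0%, 0.741%, 0.382% and 0.381%. Over all libraries the shares were 1.92% of T or NK cells (0.924 to 3.50) and 1.99% of B or plasma cells (0.914 to 3.75), with intervals that overlapped that of the myeloid cells (2.58 to 4.75) and each other. Thinned to 2000 UMIs, the share of B or plasma cells was 0.319% and that of T or NK cells 1.57%. The pooled shares of the proximal tubule (0.323%, 0.226 to 0.447), the distal nephron (0.255%, 0.167 to 0.374) and the endothelium (0.371%, 0.192 to 0.647) likewise overlapped.

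**Figure D3:**
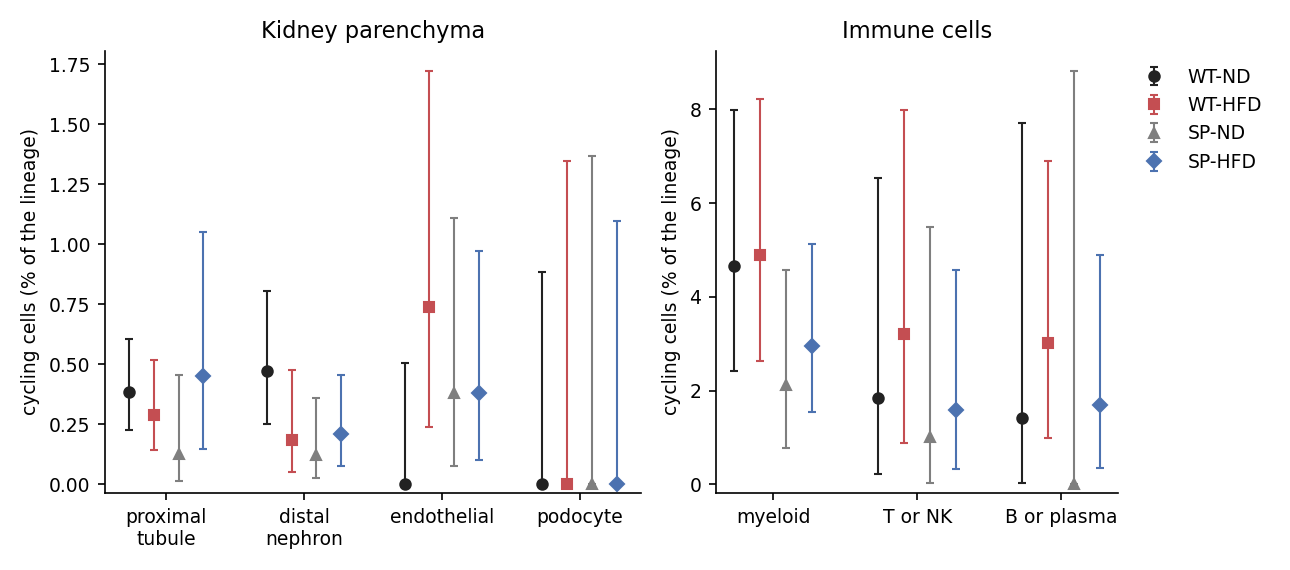
Share of the kept cells of each lineage that were cycling (vertical axis, percent) by lineage (horizontal axis), for parenchyma on the left and immune cells on the right on separate scales. Points are the 4 libraries, each with its 95% Clopper-Pearson interval, and myeloid cells lie between 2.13% and 4.89% while proximal tubule cells lie between 0.127% and 0.452%.

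Between diets the proximal tubule share was 0.755 times as high on HFD as on ND in WT (0.322 to 1.69) and 3.57 times as high in SP (0.584 to 37.5). The distal share was 0.396 times as high in WT (0.094 to 1.28) and 1.69 times as high in SP (0.361 to 10.4), and 0.262 times as high in SP-ND as in WT-ND (0.0479 to 0.954). For the myeloid cells the ratio HFD over ND was 1.05 in WT (0.442 to 2.52) and 1.39 in SP (0.484 to 4.52). These ratios depended on the threshold and on thinning. With 1 UMI the WT ratio was 2.27 in the proximal tubule (1.50 to 3.49), 1.24 in the distal nephron (0.676 to 2.26) and 1.75 in myeloid cells (0.896 to 3.53). The first pair thus turned in direction, while with 3 UMIs the WT ratios were 0.530, 0.258 and 0.970. In SP the ratios with 1 UMI were 2.57 (0.773 to 9.75), 5.07 (1.48 to 26.8) and 1.22 (0.637 to 2.41) in the same order. At 3 UMIs the SP ratios were 1.43, 5.07 and 0.928. Thinned to 2000 UMIs per cell, the ratios were 0.313, 0.0365 and 0.490 in WT and 7.79, 3.36 and 0.834 in SP. Both myeloid ratios thus fell below 1 on thinning. At 2 UMIs all of these intervals but that for distal cells on ND held 1, and with 2 to 18 cells a group they spanned wide ranges. The cell mixes of the libraries differed as well, with proximal tubule cells at 43.1%, 39.1%, 23.4% and 14.8% of kept cells. Standardised to the class mix of all kept cells, the share of cycling cells was 0.490%, 0.542%, 0.225% and 0.436%, with SP-ND still the lowest.

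Some members did not look like whole cycling cells of 1 type. Among the B or plasma cells 8 of 9 had neither Stmn1 nor Birc5 and fewer than 10 of the 92 cycle genes, at a median depth of 15178 UMIs for the lineage. The ninth, a plasma cell of WT-HFD with 117 Mzb1 UMIs, had 3 Mki67, 3 Top2a, 8 Stmn1 and 7 Birc5 UMIs and 55 of the genes. Of the 8 plasma cells, 6 had been chosen by 2 to 5 UMIs of Mki67 alone. The 3 proximal tubule cells of WT-HFD with 0 or 1 of the cycle genes had 939, 1045 and 2199 UMIs in all.

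Barcodes that hold more than 1 cell cannot be told from single cells by these counts, and no doublet caller was run. The 2 cells with markers of 2 lineages, 1 in WT-ND and 1 in WT-HFD, were kept apart. A mix of segments within the distal nephron is not set apart by this rule, and the single intercalated member of SP-HFD had 70 UMIs of its own list, 227 of the thick ascending limb list and 21 of Slc12a1. A thick ascending limb member of SP-HFD had 20 UMIs of the macrophage list beside 89 of its own, and a proximal tubule member of WT-HFD had 24 beside 72, with 15 of C1qa. The stromal member, in WT-ND, had 336 UMIs of the fibroblast list and 190 of the principal cell list. In WT-ND 2 proximal tubule members carried 12 and 17 UMIs of Gzma and 4 and 5 of Nkg7, which are cytotoxic lymphocyte genes. Over the members of each lineage the median level of other lineages' lists was low: cycling myeloid cells had a median of 37.5 UMIs of the macrophage list per 10000 and 3.28 of the proximal tubule list. Cycling proximal tubule cells had 78.3 of their own list and 2.20 of the thick ascending limb list, and 0 of the macrophage list. The 12 cells without a class were rich in cycle genes, with at least 10 of the 92 in 11 of them, and had medians of at most 4.82 UMIs per 10000 for any list. Single cells lay higher, up to 48.3 per 10000 for the thick ascending limb list. That cell, of SP-HFD, had 44 UMIs of the list, with 17 of Slc12a1. The 12 cells came from WT-HFD (6), SP-ND (2) and SP-HFD (4).

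Lists of cycle genes were then compared between cycling cells and the other kept cells, weighted to the same classes, for genes with at least 10 CPM in either. Genes that passed this level only through the cycling cells had to be higher there. Of 171 genes in 9 lists of the cycle, 144 passed in every library, and 120 of them (83.3%) were at least 2-fold higher in all 4 libraries. The same held for 3.65% of all 7722 genes that passed in every library, and 0 of the 144 were 2-fold lower in all 4 against 0.117% of all genes. By library, 145 of 158 listed genes (all genes 11.0%), 139 of 156 (9.33%), 133 of 156 (14.2%) and 144 of 160 (10.1%) were higher. On HFD 1 listed gene in each genotype was 2-fold lower (all genes 7.52% and 10.1%), and on ND none was (5.95% and 11.0%). The median log2 ratio of the listed genes was 3.8, 3.43, 3.28 and 3.51, beside 0.12, 0.08, 0.07 and 0.00 over all genes.

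**Figure D4:**
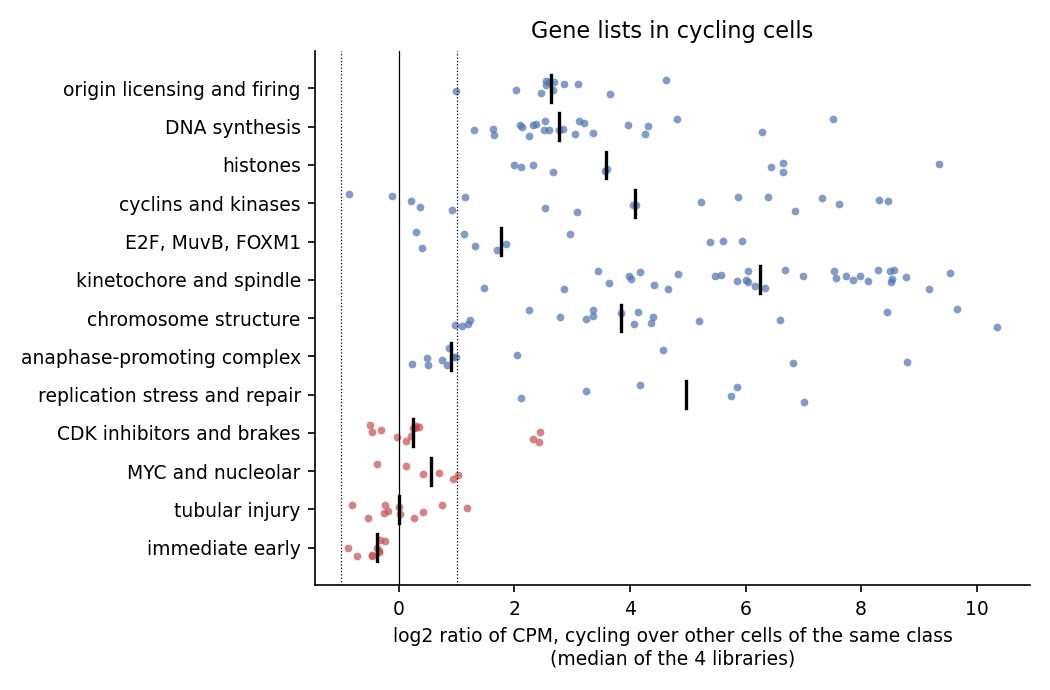
Log2 ratio of CPM in cycling cells over other cells of the same classes (horizontal axis) for the genes of 13 lists (vertical axis), with 1 point per gene that passed 10 CPM in every library, at its median over the 4 libraries, with bars at list medians and dotted lines at 2-fold. The 34 kinetochore and spindle genes all lie past 2-fold. No tubular injury or immediate early gene was 2-fold higher in all 4 libraries, against 3.65% of all genes.

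In the loading and firing of replication origins, 11 of 12 genes that passed in every library were 2-fold higher in all 4. Mcm5, a subunit of the MCM helicase, was 33.5, 56.3, 63.3 and 44.9 CPM in cycling cells, against 2.17, 5.26, 4.24 and 6.31 CPM, a pooled log2 ratio of 3.41 (3.03 to 3.78). Cdc45, which joins MCM at the fork, had a pooled ratio of 4.55 from 33 UMIs, and Gins4, of the same helicase, 1.08, with library values from 0.32 to 1.59. In DNA synthesis and chromatin assembly 21 of 23 genes were higher in all 4 libraries. Pclaf, a partner of PCNA, was 263, 202, 142 and 219 CPM against 1.08, 2.98, 0.692 and 1.36 CPM. Rrm2, the ribonucleotide reductase subunit made in S phase, was 201, 111, 127 and 225 CPM against 2.34, 1.58, 2.27 and 1.50 CPM. Pcna, the sliding clamp, had a pooled ratio of 2.39 (2.24 to 2.53), and Slbp and Rfc2 had the lowest of the list, 1.62 and 1.40.

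All 10 histone genes of the list were higher in all 4 libraries. Hist1h3c, Hist1h1b and Hist1h2ap, which encode replication-dependent histones, had pooled log2 ratios of 8.45, 6.41 and 6.43. The variant histone genes H2afv and H2afz, whose messages are also made outside S phase, had 2.04 (1.92 to 2.15) and 2.14 (2.08 to 2.20), on backgrounds of 81.6 to 114 CPM and 245 to 434 CPM. Replication-dependent histone messages mostly lack a poly(A) tail, which these libraries capture, so their counts come from the part that was captured.

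Among cyclins, their kinases and the mitotic kinases, 12 of 18 genes were higher in all 4 libraries and the D-type cyclins stood apart. Ccna2, the cyclin of S and G2, was 98.1, 86.3, 42.2 and 107 CPM against 0.340, 0.248, 0.165 and 0.147 CPM, and Ccnb1, the mitotic cyclin, 45.4, 79.2, 31.6 and 64.5 CPM against 0.197, 0.478, 0.245 and 0.266 CPM. Cdk1, their kinase, had a pooled ratio of 6.47 (6.17 to 6.78) and Plk1, a mitotic kinase, 8.51. Ccnd1, the cyclin that links growth signals to the start of the cycle, was 191, 208, 337 and 222 CPM against 283, 205, 265 and 268 CPM, with library log2 ratios of -0.57, 0.02, 0.35 and -0.27. Ccnd2 was lower by more than 2-fold on HFD in both genotypes (-1.03 in WT and -1.33 in SP) and at 0.04 and -0.68 on ND. Ccnd3 and Cdk4, its kinase partner, had pooled ratios of 0.31 (0.01 to 0.59) and 0.92 (0.62 to 1.20).

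Of the CDK inhibitors, pocket proteins and p53 pathway genes, 3 of 13 were higher in all 4 libraries. These were Cdkn2c (p18), with a pooled ratio of 2.52, Cdkn2d (p19), with 2.25, and Rbl1 (p107), with 2.31, all known to be made under E2F control. Cdkn2c was 71.7, 75.7, 63.3 and 104 CPM against 15, 12.2, 14 and 15.1 CPM. The inhibitors p21 (Cdkn1a) and p27 (Cdkn1b) had pooled ratios of 0.36 (0.12 to 0.60) and 0.22 (-0.07 to 0.50). The antiproliferative genes Btg1 and Btg2 had -0.39 and -0.42, below 0 in all 4 libraries and short of 2-fold in each. Without matching of classes the median ratio of Btg1 turned above 0. The list's medians by library were 0.00, 0.28, 0.37 and 0.18, near those of all genes.

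Among transcription factors of the cycle 6 of 10 genes were higher in all 4 libraries. E2f8 and E2f7, which repress E2F targets late in S phase, had pooled ratios of 5.94 and 5.38, and Foxm1, which activates mitotic genes, 5.60. E2f4 and E2f5, which act in resting cells with the pocket proteins, both had 0.45 with intervals that held 0.

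The kinetochore, spindle and cytokinesis list was the only one of more than 10 genes with every gene past 2-fold in all 4 libraries, 34 of 34. Its medians by library were 6.97, 5.95, 5.98 and 6.29. Hmmr, a spindle assembly factor, was 148, 123, 94.9 and 152 CPM against 0.220, 0.280, 0.110 and 0.187 CPM, and Nuf2, of the NDC80 complex, 40.7, 42.3, 21.1 and 56.1 CPM against 0.119, 0.0628, 0.0142 and 0.112 CPM. Tuba1b, a widely made alpha-tubulin, and Bub3, a checkpoint protein, had the lowest ratios, 2.89 and 1.53. For chromosome structure 16 of 19 genes were higher in all 4 libraries. Esco2, the cohesin acetyltransferase of S phase, had a pooled ratio of 10.16, while Smc3, the cohesin subunit it acts on, had 0.98 (0.76 to 1.20) and was present in the reference at 51.5 to 68.2 CPM.

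Of the anaphase-promoting complex and its activators, 4 of 12 genes were higher in all 4 libraries: Ube2c, Cdc20, Fbxo5 and Ube2s. Ube2c was 196, 447, 105 and 359 CPM against 0.490, 0.704, 0.651 and 0.723 CPM, and Cdc20 was 124, 118, 63.3 and 160 CPM against 0.50, 0.976, 0.656 and 1.50 CPM. Fbxo5, an inhibitor of the complex, had a pooled ratio of 4.75. These 4 are its ubiquitin-conjugating enzymes, an activator and an inhibitor, whereas no core subunit of the complex was 2-fold higher in all 4 libraries. Anapc2 had 0.07 (-0.46 to 0.54), Cdc27 0.46 (-0.14 to 1.01) and Anapc11 0.80 (0.54 to 1.05), and the second activator, Fzr1, 1.08 (0.53 to 1.59). In replication stress and DNA repair all 6 genes that passed in every library were higher in all 4, among them Clspn and Brca1 with pooled ratios of 5.82 and 5.27.

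Lists outside the cycle did not share the high counts of the cycle lists. Over all genes 3.65% were 2-fold higher and 0.117% lower in all 4 libraries, so counts of 0 in lists this short lie near these shares. No gene of 6 in the MYC and nucleolar growth list was 2-fold higher in all 4 libraries, although Ncl, a nucleolar protein, had 0.70, 0.70, 0.85 and 0.67 in turn. No gene of 11 in the tubular injury list was 2-fold higher in all 4. Vim, an intermediate filament gene, was 155, 999.9, 1218 and 530 CPM against 110, 290, 376 and 337 CPM. Its ratios of 0.50, 1.79, 1.69 and 0.65 were above 0 in each library, and in the proximal tubule and distal nephron members it was read with 9 and 2 UMIs only. Havcr1, which encodes KIM-1, was read with 2 UMIs over all cycling cells. All 9 immediate early genes passed and none was 2-fold higher or lower in all 4 libraries, with medians by library of -0.37, -0.28, -0.47 and -0.75. Fos was 294, 687, 417 and 516 CPM against 538, 998, 751 and 777 CPM. Without matching of classes the median ratios of Atf3, Hspa1b and Zfp36, also of this list, turned above 0.

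Outside the lists, the genes with the highest ratio in their lowest library included Pbk, a mitotic kinase, with 100, 65.1, 137 and 132 CPM against 0.0595, 0.292, 0.0160 and 0.0650 CPM. Others were Aspm, Cenpm, Knstrn and Cenpw, of the spindle and centromere, with pooled ratios of 7.75, 5.98, 5.42 and 4.39. Ezh2, the methyltransferase of the Polycomb repressive complex that deposits H3K27 trimethylation, was 115, 93.3, 84.4 and 115 CPM against 11.7, 14.4, 11.7 and 14.2 CPM, a pooled ratio of 2.96 (2.71 to 3.19). Mthfd2, an enzyme of mitochondrial one-carbon metabolism, had 2.46, and Lockd, Trim59 and Hist1h1d 5.63, 3.53 and 3.31. The genes with the lowest ratio in their highest library included Igfbp5, a binding protein of insulin-like growth factors, with 55, 79.2, 31.6 and 205 CPM against 138, 467, 630 and 482 CPM. Ccn2, also called connective tissue growth factor, had a pooled ratio of -3.34, Cryab, a small heat shock protein, -1.98, and Apoe, a lipid carrier, -1.12. Slfn5 and Plpp1 were lower too, with 0 UMIs each in WT-ND and pooled ratios of -1.93 and -1.35. Fcgr3, Wfdc15b, Tcim and Crebrf had pooled ratios from -1.29 to -1.0. Without matching of classes the median ratios of Apoe and Fcgr3 turned above 0.

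Within the proximal tubule, 36 cycling cells pooled over the libraries were set against the other proximal tubule cells of the same libraries, where 11.4% of 7850 genes were 2-fold higher and 4.31% lower. All 34 spindle genes and 15 of 19 cyclin and kinase genes were 2-fold higher. Of the 11 marker genes of the segment 0 were past 2-fold either way, and since these genes also define the class this is a description. Slc34a1 had a log2 ratio of -0.40 (-0.50 to -0.30), Miox, which breaks down myo-inositol, -0.79 (-0.92 to -0.66), and Slc13a3, a dicarboxylate carrier, -0.93 (-1.41 to -0.50). Lrp2, the endocytic receptor megalin, had 0.12 (-0.01 to 0.24). Cycling proximal tubule cells thus carried 10 of the 11 markers at ratios below 0 and all within 2-fold. Of 9 injury genes 3 were 2-fold higher, Clu, which encodes clusterin, at 1.21 (0.62 to 1.74), Prom1, a membrane protein of progenitor cells, at 1.34 (0.62 to 1.97) and the transcription factor gene Sox4 at 1.16 (0.25 to 1.94). Cd24a was lower, at -1.20 (-2.82 to 0.03) from 5 UMIs. Short of 2-fold, Krt8, a keratin gene, stood at 0.93 (0.58 to 1.25) and Spp1, which encodes osteopontin, at -0.95 (-1.29 to -0.63). Ccnd1 was lower, at -0.64 (-0.94 to -0.36).

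In the distal nephron, 26 cycling cells were set against the other cells of the same segments, where 10.7% of 8834 genes were higher and 6.77% lower. All 33 spindle genes that passed and 18 of 21 cyclin and kinase genes were 2-fold higher. The thick ascending limb markers Slc12a1, Umod and Egf had ratios of -0.01, -0.04 and 0.03. Of the 11 markers of principal and intercalated cells 3 were 2-fold lower and 0 higher: the ion transport regulator Fxyd4 at -1.39, the proton pump subunit Atp6v1g3 at -1.03 and Slc26a4, the bicarbonate exchanger pendrin, at -3.07 (-4.13 to -2.19) from 10 UMIs. The others did not move together, with Aqp2 at -0.71 (-0.89 to -0.54), the water channel Aqp6 at -0.04 (-0.37 to 0.26) and Slc4a1, the anion exchanger of acid-secreting cells, at 0.39 (0.00 to 0.75). With 6 intercalated and 5 principal cells, such values rest on few cells. Cdkn1a had 1.86 (1.04 to 2.56) from 16 UMIs, and Ccnd1 0.02.

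In the myeloid cells, 43 cycling cells were set against the others, where 13.6% of 8088 genes were higher and 7.91% lower. All 34 spindle genes and 16 of 22 cyclin and kinase genes were 2-fold higher. C1qa had a ratio of -0.05 (-0.17 to 0.06) and C1qb -0.24. Csf1r, the receptor of the macrophage growth factor, had -0.79. Plac8 and Ly6c2, genes of inflammatory monocytes, had -1.48 and -2.0, while the monocyte chemokine receptor Ccr2 had -0.14 (-0.43 to 0.13). Xcr1, Flt3 and Clec9a, genes of dendritic cells, had 0.73 (0.16 to 1.26), 0.60 and 0.52, of which the last pair had intervals that held 0, while Itgax and Cd209a, also on the list of monocyte and dendritic cell markers, had -0.50 (-1.10 to 0.04) and -0.05 (-0.39 to 0.26). Cycling myeloid cells thus had the complement genes of macrophages near the level of other myeloid cells, with Plac8 and Ly6c2 lower.

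The balance of S and G2/M genes differed between lineages and libraries. Of all UMIs of the S and G2/M lists, those of the S list were 25.9% (24.4 to 27.4), 21.0% (19.9 to 22.1), 31.2% (28.8 to 33.6) and 23.4% (22 to 24.8). The G2/M list gave more UMIs in 114 cells and the S list in 33, with 4 ties. Mki67 and Top2a, which chose the cells, themselves peak in G2 and mitosis. Pooled by lineage, the S share was 20.8% in the proximal tubule, 33.7% in the distal nephron, 26.4% in endothelial cells, 25.5% in myeloid cells and 16.2% in T or NK cells. It was 38.7% in B or plasma cells, where 1 cell held 75 of the 101 S UMIs. The other cells of the lineages differed as well, with S shares of 27.6% in the proximal tubule, 35.9% in the distal nephron, 41.4% in endothelial, 36.6% in myeloid, 31.5% in T or NK and 35.6% in B or plasma cells. The pooled share in cycling cells was lower than this in each lineage but the last. Single libraries did not all follow: in the distal nephron it was higher in WT-ND (40.7% against 35.4%) and WT-HFD (50.8% against 35.7%). The S share was also higher in myeloid cells of WT-ND (38.8% against 33.7%), proximal tubule cells of SP-HFD (33.2% against 26.4%) and the 1 T or NK cell of SP-ND. In cycling cells it was 7.84% for the 12 without a class, where G2/M genes reached 15096 CPM. WT-HFD carried most of this value, with 929 of the 1257 G2/M UMIs and an S share of 3.93%, against 28.6% in the 2 cells of SP-ND and 12.2% in the 4 of SP-HFD. The G2/M list summed to 13965 CPM in cycling endothelial cells, 8298 in myeloid cells, 5077 in proximal tubule cells and 4328 in distal nephron cells. In the other cells of these lineages, named in the same order, it was 817, 890, 560 and 537 CPM. B or plasma members had 1140 CPM against 398 CPM, and 1 plasma cell of WT-HFD held 117 of their 160 G2/M UMIs.

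**Figure D5:**
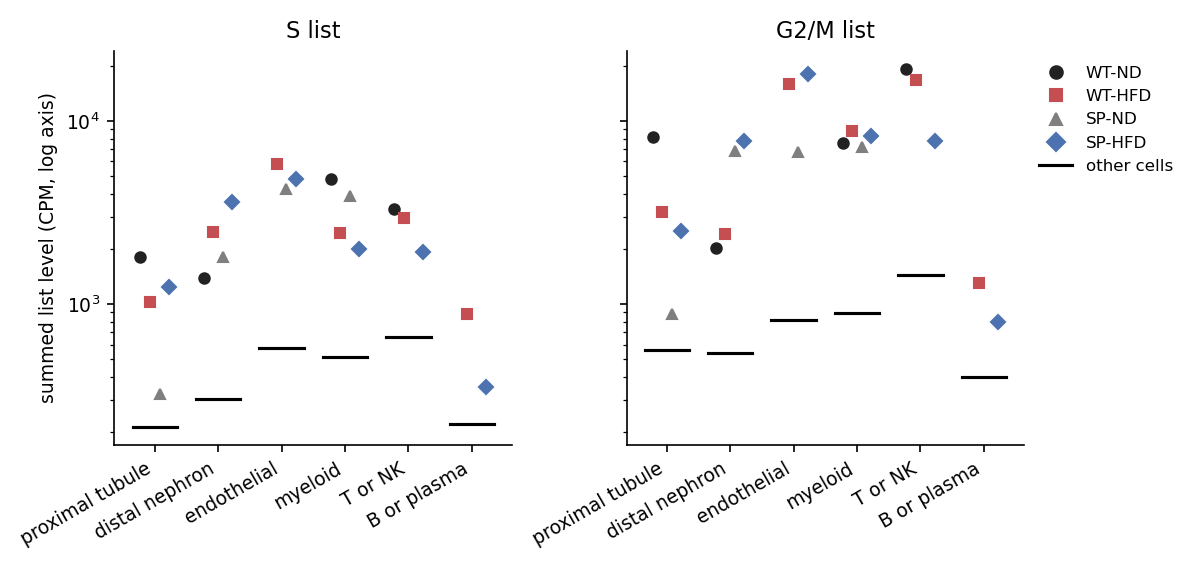
Summed level of the S list (left) and of the G2/M list (right) in CPM (vertical axes, log scale) by lineage (horizontal axis), with a point for each library that has at least 2 cycling cells of the lineage and a bar for the other cells of all 4 libraries. Among the named lineages, endothelial and T or NK members have the highest G2/M levels when pooled (13965 and 13774 CPM). B or plasma members have the lowest (1140 CPM, mostly from 1 cell).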

How the data were processed

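Whole kidneys of 4 groups of mice were measured by droplet-based 3′ single-cell RNA-Seq, with 1 library per group. The authors counted UMIs with Cell Ranger and deposited raw counts per gene and barcode for 32285 genes, without normalization. The file headers name Cell Ranger 6.1.2, while the submitters' processing notes list 2.1.1 and the build mm10. Depth was 93142028 UMIs on ND and 115117649 on HFD for WT, with 111617794 and 90728590 for SP, and every barcode had at least 500 UMIs. Each library holds more barcodes than the cells said to have been loaded, so some barcodes may not be cells. No doublet or ambient RNA removal was applied here.

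Barcodes were filtered as described above, after the study's own limits. A cell took the class whose marker list reached the highest share of its full level (the mean of the 25 cells with the highest level among cells of at least 1000 UMIs), if that share was at least 10% and at least 3 UMIs of 2 marker genes were seen. A second lineage at 1 in 3 of that or more set the cell apart. These limits were set after the data had been seen. The cycling cells, the marker lists and the gene lists were chosen with earlier results of these data known, so they are a description and no independent support. CPM are UMIs pooled over cells and scaled to a common total, and ratios are on the log2 scale with conditional binomial intervals, with a group at 0 set at 3 counts. Genes of at least 10 CPM in either group were used, and 2-fold was the limit for a count. Genes were named by rule: the markers, the lead genes, the 3 highest and 2 lowest of each list by their lowest library, and outside the lists the 10 highest and 10 lowest genes of at least 50 CPM. Other listed genes named in the text were chosen after their values were seen. A comparison of cycling cells between libraries within 1 class was planned for classes with 20 cycling cells in every library, and 0 classes had them. The methods were tested on simulated data. Work was done in pandas 2.3.3 and numpy 2.4.6 with Python 3.11.15, intervals with scipy 1.17.1 and figures with matplotlib 3.10.9. Promoters are from RefSeq (GRCm38.p6). Stmn1 and Hist1h3c are among the genes not matched to a promoter.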

Additional observations from a re-analysis of the deposited data

Results flagged for a closer look

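The share of cycling cells moved in opposite directions with diet in the 2 genotypes for the proximal tubule and the distal nephron, and with 1 library per group neither difference was tested. It held with 3 UMIs as the threshold and not with 1 UMI, where the share on HFD minus that on ND was 1.00 and 0.497 percentage points in WT and SP for the proximal tubule and 0.214 and 0.503 for the distal nephron. At 2 UMIs the share on HFD minus that on ND in the proximal tubule was -0.094 percentage points in WT (11 of 3789 against 18 of 4682 cells) and 0.325 in SP (5 of 1106 against 2 of 1578). In the distal nephron it was -0.285 percentage points in WT (4 of 2138 against 13 of 2753) and 0.085 in SP (6 of 2871 against 3 of 2424). In endothelial cells it was 0.741 percentage points in WT (5 of 675 against 0 of 725) and -0.00036 in SP (4 of 1049 against 3 of 786), where the shares were practically equal. With 1 UMI the endothelial difference in WT was 0.072 percentage points (7 of 675 against 7 of 725). The counts are small, and at 2 UMIs each interval that could be formed for the ratio HFD over ND in these lineages held 1. With 1 UMI the interval did not hold 1 for the WT proximal tubule, with a ratio of 2.27 (1.50 to 3.49). It did not for the SP distal nephron either, with 5.07 (1.48 to 26.8).

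Cells that the filters removed also met the rule on Mki67 and Top2a. Among barcodes with over 5000 detected genes 14 of 956 did, 1.46% (0.803 to 2.44), above the 0.434% of kept cells, and all 14 had at least 10 of the 92 S and G2/M genes. By marker lists 7 were distal nephron, 4 proximal tubule and 2 endothelial cells, 1 had no class, and 6 came from WT-ND, 6 from WT-HFD, 2 from SP-ND and 0 from SP-HFD. Their median depth was 31465 UMIs, and barcodes of more than 1 cell cannot be told apart from large single cells here. Among barcodes with at least 50% mitochondrial UMIs 43 of 22909 met the rule, 0.188% (0.136 to 0.253), of which 29 had at least 10 of the genes, 17 were proximal tubule cells and 25 had no class.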

How the results depend on the processing

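Over the alternatives, 85 of 127 values that answer a comparison stayed within counting error or within 1.5 times of the value given. At 1 UMI of the rule genes the library shares were 0.938%, 1.88%, 0.592% and 1.26%, and by lineage 1.07% (proximal tubule), 0.687% (distal nephron), 0.773% (endothelial), 7.10% (myeloid), 4.80% (T or NK), 7.52% (B or plasma) and 0.926% (no class). At 3 UMIs they were 0.304% in WT-ND, 0.361% in WT-HFD and 0.335% in SP-HFD, with 0.215% of proximal tubule and 0.128% of distal cells. Thinned to 2000 UMIs they were 0.301% in WT-ND, 0.236% in WT-HFD and 0.302% in SP-HFD, with 0.176% of proximal tubule, 0.0985% of distal, 2.11% of myeloid and 0.319% of B or plasma cells, and an S share of 29.2% in WT-ND. Under 30% mitochondrial UMIs WT-HFD had 0.687%. By the 8 lead genes alone, endothelial cells were 3.97% of cycling cells, myeloid 13.2%, T or NK 1.32% and no class 43.7%, since fewer genes name fewer cells. The likelihood of other genes gives every cell a class, so no class was 0% there by construction. With a minimum of 50 CPM, which tests fewer genes, 74, 76, 69 and 79 cycle genes were higher by library and 55 in all 4, and 95 of all genes were higher and 1 lower in all 4. Without matching of classes 505 were higher and 70 lower, and with the mean over cells 22 were lower. The mean over cells gave S shares of 29.0% in WT-ND and 22.2% in WT-HFD. Of 558 values over 93 single genes 7 changed sign: without matching, the median log2 ratio was 0.21 for Apoe, 0.84 for Atf3, 0.54 for Btg1, 1.55 for Fcgr3, 0.74 for Hspa1b and 0.58 for Zfp36, and with the mean over cells -0.082 for E2f5. The cause of these shifts was not tested. CPM without mitochondrial UMIs, chosen after seeing the data, moved none of the counts by over 1.5 times. The ratios of shares between diets at 1 and 3 UMIs and after thinning, given above, were also chosen after seeing the data. With 1 library per group no replicate could be left out. No paired analysis was possible because each group has 1 library. Counts of 1 to 18 cells per lineage and library limit all comparisons between groups.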
